A study of Mus musculus with 6 samples.

Results

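The clock output genes examined here were 10 genes through which the circadian clock reaches the rest of the cell: Dbp, Tef, Hlf, Nfil3, Nr1d1, Nr1d2, Bhlhe40, Bhlhe41, Rora and Wee1. They were picked by symbol, and all 10 were found among the 47729 genes counted. The choice was made with earlier results of the same KO and WT libraries known, so the comparison of KO with WT is given for these 10 genes as a description, without a p-value. All 10 passed the filter on low counts, which 14625 genes passed.

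The libraries came from lung ECs of male mice, 14 weeks old, on normal chow. The 3 WT libraries were from WT mice and the 3 KO libraries from leene-KO mice, and every mouse of both groups carried an osmotic pump that delivered Angiotensin II (AngII) at 1000 ng/kg/min for 2 weeks, so no group without AngII was sequenced. Leene-KO mice lack, in every cell of the body, the region syntenic to the human gene of the lncRNA LEENE, on the C57BL6 background. The cells of 3 mice per group were pooled according to the labels, and nothing states that the libraries of a group came from separate mice, so the spread between them may be technical. The labels describe enrichment on CD31 and the methods of the study on CD144, both of which mark endothelium. The hour at which the lungs were taken was not given in the sources used here.

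In the circadian clock, the activator pair BMAL1 (encoded by Arntl) and CLOCK binds E-boxes and switches on the Per and Cry genes, whose proteins then inhibit the pair. The same activators drive Dbp, Tef and Hlf, the PAR bZIP factors that activate genes through D-boxes, and Nr1d1 and Nr1d2, which encode the nuclear receptors REV-ERB alpha and REV-ERB beta. REV-ERBs repress genes with ROR elements, among them Arntl, Npas2 and Nfil3, while NFIL3 represses the D-box genes that the PAR bZIP factors activate. The Dbp and Nfil3 transcripts therefore peak at different hours in most mouse tissues, and lung is a strongly rhythmic organ.

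These elements were searched in the promoters of the genes, taken from RefSeq on GRCm38.p6 as the 250 bases before and the 50 bases after each annotated start. Of the 10 genes, 8 had a promoter in that table (not Bhlhe40 and Wee1). Both strands were searched. The E-box, CACGTG, was found in 7.15% of all 32851 promoters. The related E-prime box, CACGTT, was found in 4.68%. The D-box was searched as TTANGTAA and was found in 2.32%. The ROR element, TAGGTCA, was found in 2.61%. No motif overlapped another in the genes shown. Among the 8 genes, Tef and Bhlhe41 held an E-box, Nr1d1 an E-prime box and Nfil3 a ROR element, and none held a D-box. Tef had a second annotated start, which held an E-box as well. The 250 bases before the start of these 4 genes are shown because they held a match, together with those of the clock gene Per3, which held 2 D-boxes. Per3 was picked for that match from 21 other genes searched. Of these 21, 2 held a D-box (Per3 and Rorb), 4 an E-box, 3 an E-prime box and 1 a ROR element. Capitals mark the matches, each sequence runs 5′ to 3′ on the strand of its gene, and coordinates are those of GRCm38.p6.
Tef, chr15:81802423-81802672, plus strand: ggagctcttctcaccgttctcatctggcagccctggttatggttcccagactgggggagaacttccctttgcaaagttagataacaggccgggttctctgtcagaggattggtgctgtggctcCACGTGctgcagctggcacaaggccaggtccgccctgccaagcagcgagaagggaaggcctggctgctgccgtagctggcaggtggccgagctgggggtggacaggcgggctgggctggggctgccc
Bhlhe41, chr6:145865421-145865670, minus strand: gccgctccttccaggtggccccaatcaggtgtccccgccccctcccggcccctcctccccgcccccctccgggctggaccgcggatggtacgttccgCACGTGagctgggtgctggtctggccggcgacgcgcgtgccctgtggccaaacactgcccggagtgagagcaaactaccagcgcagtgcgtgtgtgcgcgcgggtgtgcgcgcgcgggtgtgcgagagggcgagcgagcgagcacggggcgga
Nr1d1, chr11:98775378-98775627, minus strand: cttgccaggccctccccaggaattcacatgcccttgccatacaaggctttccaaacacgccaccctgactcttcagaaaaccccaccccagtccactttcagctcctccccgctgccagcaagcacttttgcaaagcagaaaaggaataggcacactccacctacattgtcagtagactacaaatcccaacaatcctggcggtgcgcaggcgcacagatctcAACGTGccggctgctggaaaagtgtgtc
Nfil3, chr13:52981040-52981289, minus strand: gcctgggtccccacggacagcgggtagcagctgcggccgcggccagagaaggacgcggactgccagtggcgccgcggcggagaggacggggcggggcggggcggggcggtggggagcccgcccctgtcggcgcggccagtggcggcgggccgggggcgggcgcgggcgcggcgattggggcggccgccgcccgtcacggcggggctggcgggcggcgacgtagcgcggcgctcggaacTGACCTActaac
Per3, chr4:151044666-151044915, minus strand: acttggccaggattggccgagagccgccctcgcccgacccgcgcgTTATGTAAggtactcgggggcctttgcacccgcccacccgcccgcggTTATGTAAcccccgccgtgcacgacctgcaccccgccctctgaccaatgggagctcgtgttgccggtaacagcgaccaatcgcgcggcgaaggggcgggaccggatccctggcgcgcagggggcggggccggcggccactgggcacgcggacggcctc
The match began 127 bases before the start in Tef, 153 in Bhlhe41, 28 in Nr1d1 and 12 in Nfil3, and 205 and 158 bases before it in Per3. A match describes these letters only, and the Dbp, Hlf, Nr1d2 and Rora windows held none.

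Total counts ran from 24464324 to 35184063 per library, and mitochondrial genes took 37.4% to 54.5% of them. The counted annotation held no row for Gm41148, the putative mouse leene, so the deletion was not analysed here and the genotypes rest on the labels. All 8 endothelial markers were detected in every library, at a summed level of 1109 to 2236 CPM in WT and 1453 to 2436 CPM in KO, where CPM are read counts relative to the library size after TMM scaling. Markers of other lung cells were abundant too. WT replicate 2 stood with the KO libraries for the 5 alveolar type II markers, which summed to 4934, 46390 and 14400 CPM in WT and to 36570 to 44950 CPM in KO. In bulk libraries, fewer cells of a type and less RNA per cell cannot be told apart.

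The PAR bZIP factors were all higher in the KO libraries, and Dbp by far the most. Dbp (D-box binding PAR bZIP factor, chromosome 7, 45705247 to 45710203, GRCm38) measured 3.28, 1.76 and 1.78 CPM in the WT libraries, by replicate number, against 16.8, 26.1 and 18.4 CPM in the KO libraries. The lowest KO library was thus well above the highest WT library, on 38 to 134 reads per library in WT and 390 to 709 in KO. WT libraries averaged 2.27 ± 0.872 CPM and KO libraries 20.4 ± 4.96 CPM (SD, n = 3 each), 8.99-fold apart, for a log2 fold change of 3.15 (standard error 0.31). This was the fourth highest log2 fold change of the 14625 genes. The 3′ end of Dbp shares 539 exonic bases with Sphk2 on the opposite strand. Reads were counted by strand, and Sphk2 was at 9.66 to 12.7 CPM over the 6 libraries with overlapping groups.

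Tef (chromosome 15, 81802421 to 81826861), the second PAR bZIP factor, measured 23.9, 22.6 and 14.1 CPM in WT against 34.7, 43.9 and 37.6 CPM in KO. Hlf (chromosome 11, 90336536 to 90390895), the third, measured 9.74, 8.46 and 7.12 CPM in WT against 12.3, 19.4 and 17.1 CPM in KO. For both genes the KO libraries all exceeded the WT libraries, and the groups came closest for Hlf, in WT replicate 1 and KO replicate 1. The log2 fold change was 0.93 (standard error 0.21) for Tef and 0.94 (standard error 0.21) for Hlf, so the difference in these paralogs was much smaller than in Dbp.

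Nfil3 (chromosome 13, 52967209 to 52981073), the bZIP repressor that competes for the D-box, went the other way. It measured 4.65, 7.90 and 3.79 CPM in WT against 2.67, 1.84 and 1.52 CPM in KO, on 44 to 62 reads in a KO library. Every KO library was below every WT library, and WT replicate 2 was the highest. WT libraries averaged 5.45 ± 2.17 CPM and KO libraries 2.01 ± 0.592 CPM (SD, n = 3 each), for a log2 fold change of -1.45 (standard error 0.35). Without WT replicate 2 it was -1.12.

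**Figure D1:**
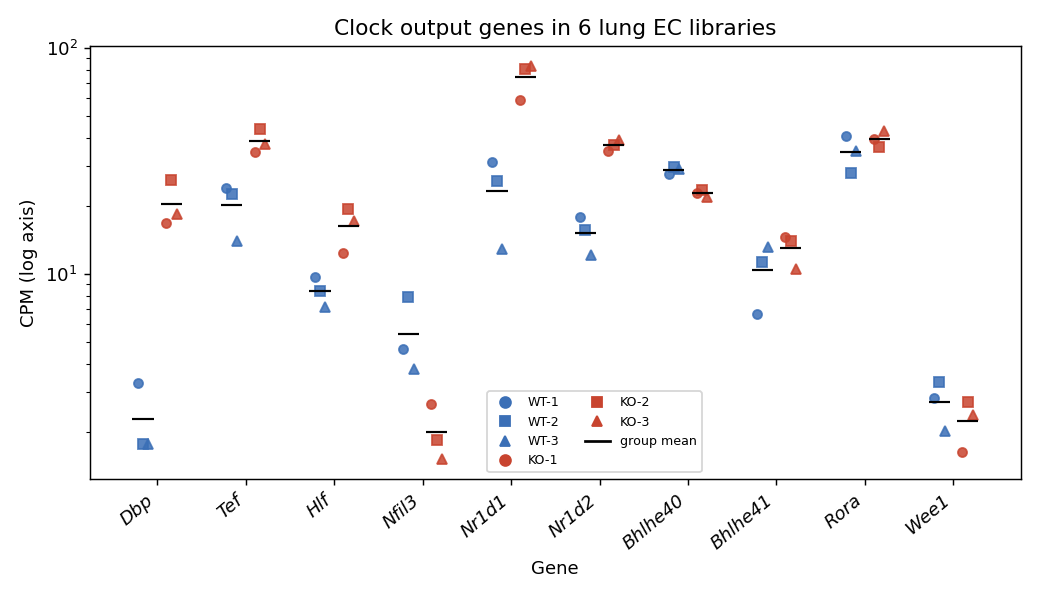
CPM of the 10 clock output genes on a log axis in 3 WT (blue) and 3 KO (red) lung EC libraries, with 1 point per library and a black line at the group mean. Dbp sits between 1.76 and 3.28 CPM in WT and between 16.8 and 26.1 CPM in KO, Nfil3 lies lower in KO, and the WT and KO points of Bhlhe41, Rora and Wee1 overlap.

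Both REV-ERB genes were higher in the KO libraries. Nr1d1 (chromosome 11, 98767932 to 98775333) measured 31.3, 25.7 and 12.9 CPM in WT against 59.1, 80.8 and 83.6 CPM in KO. WT replicate 3 was the lowest, and its 275 reads were the fewest of any library. WT libraries averaged 23.3 ± 9.44 CPM and KO libraries 74.5 ± 13.4 CPM (SD, n = 3 each), for a log2 fold change of 1.67 (standard error 0.31). The 3′ end of Nr1d1 shares 263 exonic bases with Thra on the opposite strand, and Thra was at 75.1 to 102 CPM over the 6 libraries with overlapping groups. Nr1d2 (chromosome 14, 18204054 to 18239127) measured 17.9, 15.6 and 12.1 CPM in WT against 34.9, 37.1 and 39.2 CPM in KO. Its groups stood far apart against their own spread, with a highest to lowest ratio of 1.48 in WT and 1.12 in KO, and the log2 fold change was 1.28 (standard error 0.16).

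Rora (chromosome 9, 68653786 to 69388246) encodes the nuclear receptor that activates through the ROR elements at which REV-ERBs repress. It measured 40.8, 27.9 and 35.2 CPM in WT against 39.7, 36.6 and 42.7 CPM in KO. The groups overlapped, and the log2 fold change of 0.20 (standard error 0.16) was close to 0. It was 0.02 without WT replicate 2 and 0.33 without WT replicate 1. With total counts in place of TMM it was 0.00, against a median over all genes of -0.13 under that scaling and 0.03 under TMM.

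The E-box repressors DEC1 and DEC2 differed in direction. Bhlhe40 (DEC1, chromosome 6, 108660629 to 108666925) measured 27.8, 29.8 and 29.3 CPM in WT against 22.8, 23.7 and 21.9 CPM in KO. The step was small but the libraries of a group lay very close together. Every KO library was below every WT library, and the log2 fold change was -0.34 (standard error 0.11). Bhlhe41 (DEC2, chromosome 6, 145858243 to 145865558) measured 6.68, 11.3 and 13.2 CPM in WT against 14.6, 14.1 and 10.5 CPM in KO. Its groups overlapped, and the log2 fold change was 0.33 (standard error 0.26), or 0.09 without WT replicate 1 and 0.53 without WT replicate 3. Wee1 (chromosome 7, 110122350 to 110142112), the kinase that holds CDK1 inactive before mitosis and a clock-controlled gene in liver, measured 2.84, 3.32 and 2.01 CPM in WT against 1.63, 2.72 and 2.38 CPM in KO. These groups overlapped as well, and the log2 fold change was -0.28 (standard error 0.31). It was -0.12 without KO replicate 1, -0.16 without WT replicate 2 and -0.47 without KO replicate 2 or WT replicate 3.

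Of the 10 genes, 7 had a log2 fold change above 0 and 3 below, with a median of 0.63, against a median of 0.03 over all genes tested. The libraries of the 2 groups did not overlap in 7 genes, 5 with KO above (Dbp, Tef, Hlf, Nr1d1 and Nr1d2) and 2 with KO below (Nfil3 and Bhlhe40). Over all genes tested 17.8% did not overlap, 8.59% with KO above and 9.2% with KO below. The threshold for a call was 0.05 on the p of edgeR's quasi-likelihood fit after Benjamini-Hochberg adjustment over all genes. Of the 10 genes 1 was called, Dbp, which was higher in KO. Of all genes 0.109% were called, 0.0342% higher and 0.0752% lower in KO. Without adjustment 7 of the 10 and 10.3% of all genes passed. DESeq2 called 6 of the 10 (Dbp, Tef, Hlf, Nr1d1, Nr1d2 and Nfil3) and 1.21% of all genes. Limma-voom and RLE scaling each called 2 of the 10 and 0.178% of all genes, total counts 3 and 0.841%, omission of mitochondrial genes 2 and 0.156%, no filter 6 and 0.582%, and a filter of 10 counts in every library 1 and 0.106%. With WT replicate 1, 2 or 3 left out, 2, 3 or 0 of the 10 were called, and 0.16%, 5.29% or 0.086% of all genes. Nothing is read from these counts, since the genes were chosen on this contrast. The call of Dbp was lost without WT replicate 3, without any 1 of the KO libraries and with the replicate number as a block. Without a KO library or with the block, 0 of all genes were called. The log2 fold change of Dbp stayed between 2.90 and 3.52.

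**Figure D2:**
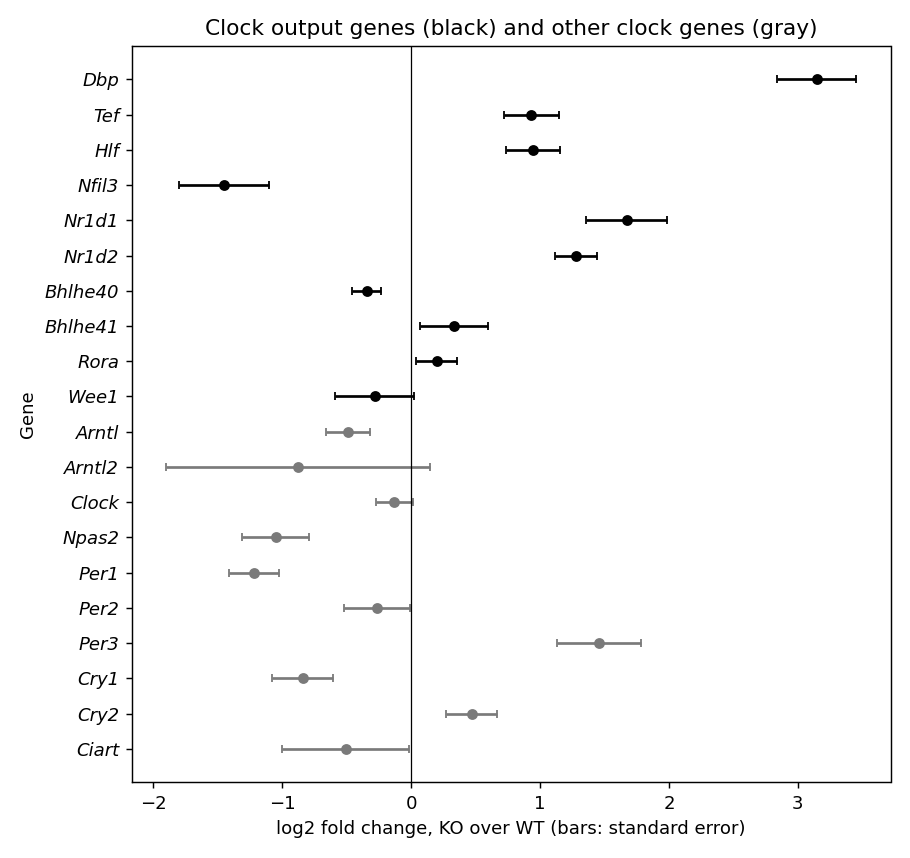
Log2 fold change of KO over WT with its standard error for the 10 clock output genes (black) and for 10 clock activators and repressors (gray), from edgeR's fit over 3 WT and 3 KO libraries. Dbp stands at 3.15, Per3, Nr1d1 and Nr1d2 between 1.28 and 1.67, and Nfil3, Per1 and Npas2 between -1.45 and -1.05.

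The order of the genes by level differed between the groups. Levels are compared between genes as RPKM, which are CPM per kilobase of exon. In WT, Nr1d1 (7.57 ± 3.07 RPKM, SD, n = 3) and Bhlhe40 (6.15 ± 0.220 RPKM) were the highest, with overlapping libraries. Bhlhe40 was above the next gene, Nr1d2 at 3.04 ± 0.581 RPKM, in every library. From Nr1d2 down through Nfil3, Rora, Tef, Bhlhe41, Wee1 and Dbp to Hlf (1.26 ± 0.197 RPKM), each gene overlapped its neighbor in the order. In KO, Nr1d1 at 24.2 ± 4.35 RPKM was above Dbp at 12.2 ± 2.96 RPKM, and Dbp was above Nr1d2 at 7.41 ± 0.424 RPKM, in every library. Dbp thus stood ninth of 10 in WT and second in KO, and Nfil3, at 2.69 ± 1.07 RPKM the fourth in WT, was the last in KO at 0.991 ± 0.292 RPKM. The exons of Wee1 in the counted annotation total 1941 bases, a whole number of codons, so reads from a UTR outside them would be missing from its level.

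**Figure D3:**
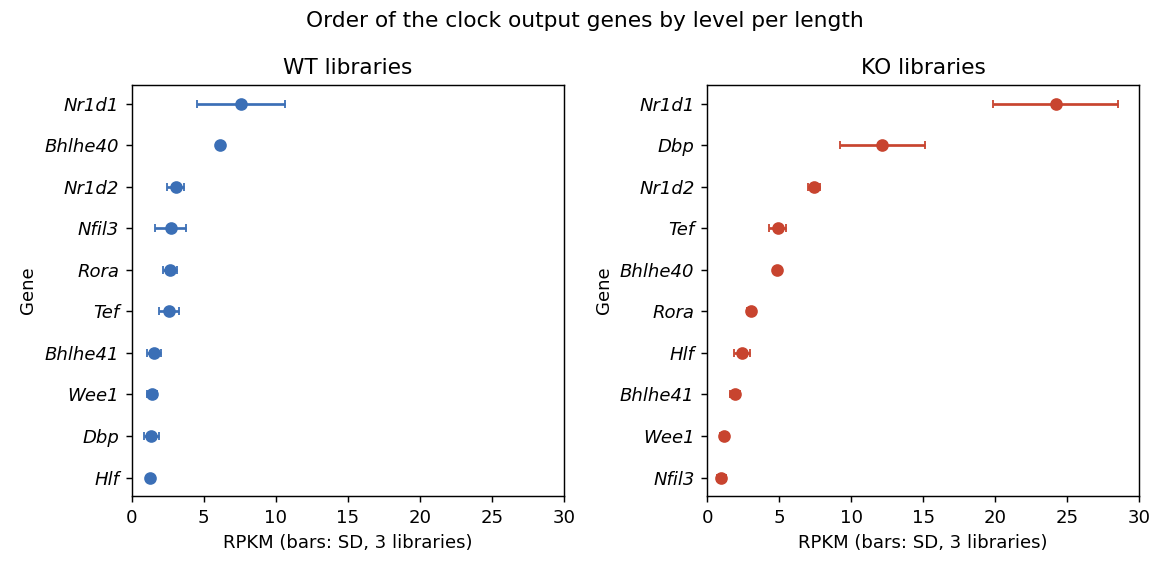
RPKM of the 10 clock output genes, ordered by group mean, in WT (left, blue) and KO (right, red) libraries, with points at the mean and bars of 1 SD over 3 libraries. Dbp is near the bottom in WT at 1.36 RPKM and second in KO at 12.2 RPKM, and Nfil3 is the last in KO at 0.991 RPKM.

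Ratios between opposed genes within a library do not depend on the scaling of libraries. The ratio of Dbp to Nfil3 per length was 0.852, 0.269 and 0.566 in WT and 7.59, 17.1 and 14.7 in KO. Nfil3 was thus the more abundant of the pair in all 3 WT libraries and Dbp in all 3 KO libraries. The ratio of Nr1d1 to Rora was 3.26, 3.92 and 1.56 in WT and 6.33, 9.37 and 8.31 in KO. Against Arntl, which REV-ERBs repress, Nr1d1 stood at 1.99, 1.86 and 1.15 in WT and at 5.98, 9.30 and 7.97 in KO. These pairs were formed with the direction of their genes known and are a description.

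**Figure D4:**
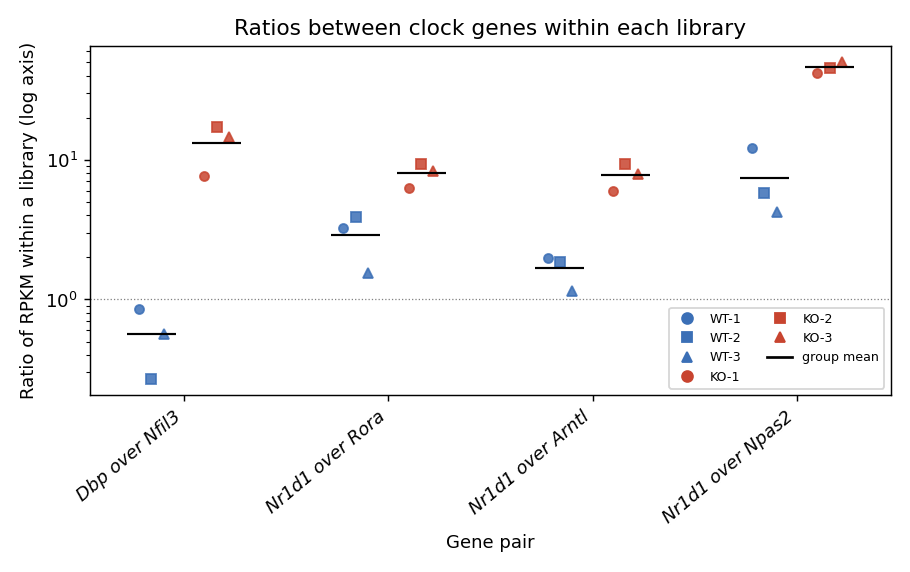
Ratio of the RPKM values of 2 clock genes within each library, on a log axis, for 3 WT (blue) and 3 KO (red) libraries with the group mean as a black line and a dotted line at a ratio of 1. Dbp over Nfil3 is below 1 in every WT library and at 7.59 or above in every KO library.

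The clock genes outside the 10 were tested in the same fit, as 19 genes (activators, repressors, kinases and ligases, and other ROR receptors). None of the 19 passed an adjusted p of 0.05 in edgeR's quasi-likelihood test, while 7 had an unadjusted p under 0.05. Of all genes 0.109% passed with adjustment and 10.3% without it. DESeq2 called Per3 (higher in KO) and Per1 (lower in KO), and limma-voom called 0. The median log2 fold change of the 19 was -0.20, with 6 above 0 and 13 below.

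Of the activators, Arntl measured 14.8, 13.0 and 10.5 CPM in WT against 9.33, 8.20 and 9.90 CPM in KO (log2 fold change -0.49, adjusted p = 0.423 in edgeR's test). Npas2, a paralog of Clock, measured 4.04, 6.87 and 4.73 CPM in WT against 2.19, 2.76 and 2.59 CPM in KO (-1.05, adjusted p = 0.286). All KO libraries were below all WT libraries for this pair. The groups overlapped for Clock (-0.13) and for Arntl2 (-0.88, standard error 1.02), a paralog of Arntl that stayed under 1 CPM.

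The Per and Cry repressors did not share a direction. Per3, with 2 D-boxes in its promoter as shown above, measured 2.13, 3.08 and 1.45 CPM in WT against 4.64, 8.02 and 5.86 CPM in KO (log2 fold change 1.46, standard error 0.33, adjusted p = 0.259 in edgeR's test). Per1, which held an E-box in that window and is also known to be induced by glucocorticoids, measured 43.0, 32.4 and 36.7 CPM in WT against 17.0, 12.3 and 18.9 CPM in KO (-1.22, standard error 0.19, adjusted p = 0.0954). Neither pair of groups overlapped, and the genes stood on opposite sides. Cry1, another gene with ROR elements, had -0.84 (standard error 0.24, adjusted p = 0.338) and Cry2 0.47 (standard error 0.20, adjusted p = 0.482), again without overlap between the groups. Per2 (-0.27), Ciart (-0.50) and Rorb (0.39) had overlapping groups. Rorb also held a D-box at 1 of its annotated starts, and Ciart held 3 E-boxes. Among the kinases and ligases that set the stability of PER and CRY, the log2 fold changes of Csnk1d, Csnk1e, Btrc, Fbxw11 and Gsk3b lay between -0.26 and 0.13, and Fbxl21 had 1.65 (standard error 0.54) at under 1 CPM in every library.

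Genes known to lie downstream of the 10 genes, to act beside them or to cycle in many organs were taken in lists. These held 39 genes in all, of which 36 were tested. Arntl, Clock, Npas2 and Cry1 were in these lists and also among the 19 clock genes above. The test called 1 of the 36 higher (Cirbp) and 2 lower (Cdkn1a and Tsc22d3). Of 6 tested genes that PAR bZIP factors are known to activate, none was called (edgeR's quasi-likelihood test, 1 at an unadjusted p under 0.05, which DESeq2 called). That gene, Cyp2a5, an enzyme of airway and liver, measured 83.7, 150 and 60.2 CPM in WT against 207, 409 and 222 CPM in KO (log2 fold change 1.51, adjusted p = 0.303). It belongs to a gene family with near-identical members, so its counts are uncertain. Por, the reductase of the cytochrome P450 enzymes, had 0.98 (adjusted p = 0.51) with WT replicate 2 at 485 CPM and the other WT libraries at 138 and 178 CPM. Without WT replicate 2, both Cyp2a5 and Por were called higher in KO, but so many genes passed there that 5.29% of all genes were called. In the main test 0.109% of all genes were called. The 3 club cell markers, whose cells express both genes, summed to 15350, 40400 and 19910 CPM in WT and to 33560, 56770 and 35630 CPM in KO, and their part in these values was not tested. Alas1, which makes the first step of haem synthesis, had -0.22 and Cyp2b10 -0.11, while Pdxk (0.04) and Ppara (0.04) stood near 0.

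REV-ERBs silence genes with the corepressor NCOR and the deacetylase HDAC3. Of 6 genes of that complex none was called (1 at an unadjusted p under 0.05, DESeq2 0). Ncor1 had -0.26, with all KO libraries below all WT libraries, while Hdac3 had 0.14 and Tbl1xr1 0.13. Of 6 tested genes that REV-ERBs repress, 5 had a log2 fold change below 0, with a median of -0.66. They include Arntl, Npas2 and Cry1 above. The highest of the list was Ccl2 (0.38), which stayed under 1 CPM.

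The list of 9 genes that cycle in many organs held all 3 calls, while 0.109% of all genes were called. It was chosen with earlier results of these data known, so nothing is read from this count. Cirbp, an RNA-binding protein induced by cold, measured 8.52, 8.40 and 12.2 CPM in WT against 26.9, 25.1 and 25.1 CPM in KO (log2 fold change 1.41, standard error 0.18, adjusted p = 0.0489 in edgeR's test). Cdkn1a, the cell cycle inhibitor p21, fell from 150, 156 and 156 CPM in WT to 51.4, 42.1 and 47.5 CPM in KO (-1.71, standard error 0.14, adjusted p = 0.0168). Tsc22d3, a glucocorticoid-induced gene also called Gilz, fell from 145, 196 and 150 CPM to 50.5, 53.8 and 62.4 CPM (-1.56, standard error 0.18, adjusted p = 0.0348). The call of Cirbp was lost without WT replicate 1 or with at least 10 counts required in every library. That of Tsc22d3 was lost without WT replicate 3. All 3 were lost with the replicate number as a block or without any 1 KO library, where 0 genes were called. Of the other 6 genes, Rbm3 (0.67), Tspan4 (0.59), Id2, Usp2 and Klf10 were above 0 and Klf9 below (-0.58, adjusted p = 0.307). Among 9 tested genes that act on CDK1 beside Wee1 none was called (edgeR's test, 2 at an unadjusted p under 0.05, DESeq2 0), with a median of -0.51 and a range from -1.23 (Cdk1, standard error 0.43) over Plk1 (-1.07) to Pkmyt1 (0.18) and Cdc25b (0.29).

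The genes whose pattern over the 6 libraries was most like that of Dbp and of Nr1d1 were looked up among 11627 others with a mean log2 CPM above 1. Likeness was the root mean square difference of log2 CPM after each gene was centred on its mean. For Nr1d1 the nearest were Per3 (0.33), Nr1d2 (0.34), Dixdc1 (0.41), P2rx6 (0.42) and Sergef (0.42). For Dbp they were Ms4a1 (0.56), Fcrla (0.69), Cr2 (0.70) and Cd79a (0.77), all genes of B cells, and then Nr1d1 (0.78). The nearest gene to Dbp was farther from it than any of the 5 genes named for Nr1d1 was from Nr1d1. Genes were centred but not scaled, so this distance also depends on the size of the step between WT and KO. Dbp ranked 4 of 14625 genes by log2 fold change, so few genes with a step of that size could lie near it.

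Markers of B cells were higher in the KO libraries, as Dbp was. All 4 B cell markers had every KO library above every WT library, as did 8.59% of all genes tested. Of the 4, 2 were called higher (Ms4a1 and Cd79a, edgeR's quasi-likelihood test), as were 0.0342% of all genes. The sum of the 4 was 5.34, 9.60 and 15.1 CPM in WT and 56.3, 52.3 and 57.6 CPM in KO. None of the 4 was at 0 in a library. Within WT the sum was the lowest in replicate 1, where Dbp was the highest, but Dbp in WT rests on 38 to 134 reads per library. The 3 T cell markers summed to 0.685 to 2.29 CPM in WT and 2.83 to 4.43 CPM in KO. The part of these cells in the levels of the clock output genes was not tested. For the alveolar type II markers, WT replicate 2 at 46390 CPM exceeded the highest KO library. Dbp in WT replicate 2 was at 1.76 CPM, beside 1.78 CPM in WT replicate 3. The part of alveolar type II cells in the level of Dbp was not tested either.

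**Figure D5:**
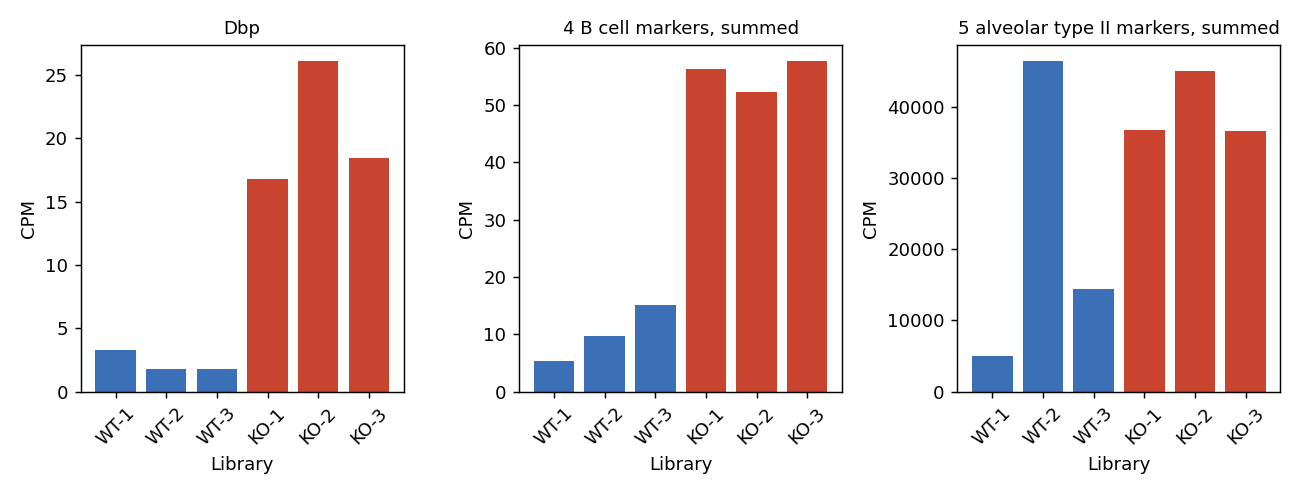
CPM in each of the 3 WT (blue) and 3 KO (red) libraries for Dbp (left), the sum of 4 B cell markers (middle) and the sum of 5 alveolar type II markers (right), with bars from 0. Dbp and the B cell sum are low in all WT libraries, while the alveolar type II sum of WT replicate 2, 46390 CPM, is at the level of the KO libraries.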

How the data were processed

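Strand-specific mRNA-seq of 3 WT and 3 KO lung EC libraries was analysed. Per the file headers, the authors made the gene counts with featureCounts 2.0.0 on uniquely aligned reads (reverse strand, exons of Ensembl release 84 on GRCm38), and the submitters' processing notes name STAR 2.5.4b. The deposited gene length is the summed exon length in bases. All 47729 genes were joined to GENCODE symbols, and 47224 had one. No pair of libraries held identical counts (chi-square per degree of freedom of 37.0 or more).

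Genes were filtered by filterByExpr, scaled by TMM and tested with glmQLFit and glmQLFTest of edgeR 4.0.16 in R 4.3.3, with genotype as the only term and Benjamini-Hochberg adjustment over 14625 genes at 0.05. DESeq2 1.42.0 with default settings (the tool in the study's methods), limma-voom (limma 3.58.1), RLE and total-count scaling, omission of mitochondrial genes, other filters, the replicate number as a block and leaving out each library were alternatives. The edgeR, DESeq2 and limma-voom tests were also run on simulated data, but the other alternatives were not. Each SD is taken across 3 libraries. The members and lists were chosen with earlier results of these data known. All 10 members, the tested clock activators, repressors and ROR receptors, called genes and the 2 highest and 2 lowest of each other list, and the 5 genes nearest to Dbp and Nr1d1 were named, and other named genes were chosen after their values were seen. TPM values named in the study's methods were not used here. Some genes covered by this rule are not reported here.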

Additional observations from a re-analysis of the deposited data

How the results depend on the processing

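The log2 fold changes of the 10 clock output genes kept their sign under all 14 alternatives, and their median stayed between 0.47 and 0.69. The number of the 10 that was called was 1 in the main test, 6 with DESeq2 and with no filter, 3 with total counts, and 2 with limma-voom, RLE scaling or omission of mitochondrial genes. It ran from 0 to 3 with 1 library left out in turn, and was 0 without WT replicate 3 or without any 1 KO library. In those fits 6 to 7 of the 10 had an unadjusted p under 0.05, as did 986 to 1274 of the 14954 to 15109 genes tested. Of the 19 other clock genes, 0 were called in the main test and 2 (Per1 and Per3) with DESeq2, total counts or no filter, and 0 to 2 with a library left out, the 2 being again Per1 and Per3 without WT replicate 2. Of the target and partner genes 3 were called in the main test, and 0 to 5 with a library left out, 5 without WT replicate 2. Over all genes the count was 16, against 187 with DESeq2, 26 with limma-voom or RLE scaling, 123 with total counts and 152 with no filter, and 0 to 791 with a library left out, 791 without WT replicate 2. The cause was not tested. With the 6 libraries of both groups averaged, the highest member was 12.4-fold above the lowest per length and 19.7-fold as CPM. The lowest gene differs between WT and KO, so neither value holds within a group.

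With the replicate number as a block, 0 members, 0 other clock genes, 0 target and partner genes and 0 of all genes were called by edgeR (7, 7, 13 and 1776 at an unadjusted p under 0.05). The log2 fold changes under the block kept their sign, at 3.18 for Dbp and -1.41 for Nfil3. Same-numbered WT and KO libraries had correlations of deviations of -0.08, 0.22 and 0.01, and only number 2 correlated best with its own number. The deviations sum to 0 within each group, so these values cannot decide whether same-numbered libraries were paired. Wee1, Nfil3 in KO and Dbp in WT rest on 134 reads or fewer in every library, which limits the precision of their folds.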

Other observations

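Heat shock genes and immediate early genes were read beside the clock genes, in lists chosen with earlier results of these data known. All 6 heat shock genes had every KO library below every WT library, as did 9.2% of all genes tested. Their median log2 fold change was -1.85. Of the 6, 3 were called lower (Hspa1b, Hsph1 and Hspb1, edgeR's quasi-likelihood test), as were 0.0752% of all genes. Hspa1a and Hspa1b are near-identical, so their counts are uncertain. Of 8 immediate early genes 7 had a log2 fold change below 0, with a median of -0.41. None was called by edgeR (4 at an unadjusted p under 0.05, as were 10.3% of all genes). Atf3, a stress-induced bZIP factor, measured 11.5, 14.0 and 14.6 CPM in WT against 4.90, 2.32 and 3.52 CPM in KO, and Egr1 had overlapping groups (0.20). The relation of these genes to the levels of the clock output genes was not tested.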
